A study of Mus musculus with 16 samples.

Results

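The respiratory chain genes of the mouse were taken from the count table by symbol, as protein-coding genes named Nduf (series a, b, c, s and v), Sdha to Sdhd, Uqcr, Cox4 to Cox8 or Atp5, together with the mitochondrially encoded genes mt-Nd, mt-Co, mt-Cytb and mt-Atp. The assembly factors named Ndufaf and Sdhaf were left out of this set. The rule found 98 genes among the 46078 in the table, 85 of them encoded in the nucleus and 13 in mitochondrial DNA. By complex, the nuclear genes numbered 38 for complex I, 4 for complex II, 8 for complex III, 18 for complex IV and 17 for complex V, and the mitochondrial genes 7, 0, 1, 3 and 2. The RNA came from spinal cord lesions of C57BL/6 mice aged 8 to 12 weeks, all injected with lysolecithin, a lipid that destroys the myelin around axons. Mice of the exercise groups had free access to a running wheel, and those of the control groups had a wheel that was locked. Lesions of both groups were sampled at day 5 and at day 10, with 4 libraries in each of the 4 groups and 16 in all. No uninjured cord entered these comparisons, so every group shared the lesion. The tissue was cut by laser microdissection, its RNA was amplified with the REPLI-g procedure, and poly-A selected, strand-specific libraries were read from a single end for 75 bases. A lesion holds many cell types, so fewer cells of a type and less RNA per cell cannot be told apart here. The labels do not say whether the libraries of a group came from separate animals, so the p-values measure the spread between libraries.

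The respiratory chain passes electrons from NADH, at complex I, and from succinate, at complex II, by way of ubiquinone to complex III, then through cytochrome c to complex IV, where oxygen is reduced to water. Complexes I, III and IV pump protons across the inner mitochondrial membrane, and complex V, the ATP synthase, uses their return to make ATP. Mitochondrial DNA encodes the core hydrophobic subunits of complexes I, III, IV and V, while all other subunits, and the whole of complex II, are nuclear genes whose products are imported. In demyelinated tissue, axons, phagocytes and the oligodendrocyte lineage all draw on mitochondria, and Ppargc1a (PGC1a, named in the study's title) is a coactivator known to raise the transcription of this gene set.

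Library totals were between 8125981 and 13930582 counts, with at least 11204380 in the control libraries of day 5 and at most 10930385 in the exercise libraries of day 5. The 85 nuclear genes held 0.475% of all counts and the 13 mitochondrial genes 0.325%, and mt-Rnr2, the large mitochondrial ribosomal RNA, took 8.05 to 12.9% of a library. Of the 98 genes, 90 passed the filter on low counts and were tested among 15096 genes, 81 of them nuclear and 9 mitochondrial. The 8 others were mt-Nd3, mt-Nd4l, mt-Co3 and mt-Atp6 and the nuclear Cox6b2, Cox7b2, Cox8b and Cox8c. Levels are given as CPM (counts per 1000000 counts) after TMM scaling, and differences as log2 fold changes from edgeR's quasi-likelihood test with Benjamini-Hochberg adjustment over all genes tested. A gene was called at an adjusted p under 0.05.

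The 13 mitochondrial genes lie within the same circular molecule and are cut from long shared transcripts, yet their counts per length differed by orders of magnitude. Across the 16 libraries mt-Co1, a core subunit of complex IV, held 411209 counts, or 280 for each 75-base window of its transcript, which was 70.7% of all counts on the 13 genes. mt-Nd1, a core subunit of complex I, held 69169 counts, or 78.3 a window. By contrast mt-Co2 held 127 counts, mt-Atp6 104, mt-Co3 77, mt-Nd3 28 and mt-Nd4l 0, which is at most 0.208 a window. The genes with few counts were those with letter-for-letter copies of nearly their whole length in annotated nuclear pseudogenes. Every 75-base stretch of each annotated transcript was looked up in all other annotated transcripts, and 99.5% of the stretches of mt-Co2, 99.9% of mt-Co3, 99.5% of mt-Atp6, 97.8% of mt-Nd3 and 98.7% of mt-Nd4l occurred unchanged in an unprocessed pseudogene on chromosome 1. No stretch of mt-Nd1, mt-Cytb, mt-Nd6 or mt-Atp8 occurred unchanged in another annotated transcript. Genome sequence outside annotated transcripts was not searched. mt-Atp8 lies between mt-Co2 and mt-Atp6, whose copies are Gm28661 (chr1:24614885-24615565) and Gm10925 (chr1:24613974-24614651). The bases between these 2 copies were not searched for mt-Atp8. A stretch of mt-Co1 was found unchanged in 39.8% of cases and within 2 mismatches in 82.5%, and for mt-Nd4 both shares were 61.5%, although both genes kept high counts.

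The first 75 coding bases of 3 genes and their copies show the difference, on build GRCm38. The mt-Co2 bases, chrM:7013-7087 on the plus strand, and those of its copy Gm28661, chr1:24615491-24615565 on the minus strand, had 0 differences. The mt-Nd3 bases, chrM:9459-9533 on the plus strand, and those of Gm28438, chr1:24613045-24613119 on the minus strand, differed by T3C. The mt-Co1 bases, chrM:5328-5402 on the plus strand, and those of Gm13340, chr2:22589573-22589647 on the minus strand, differed by C54A and A60G. Positions are counted from 1 at the first base of the gene, the first letter is that of the mitochondrial gene, and capitals mark the bases that differ.
mt-Co2: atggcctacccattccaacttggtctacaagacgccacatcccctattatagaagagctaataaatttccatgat
Gm28661: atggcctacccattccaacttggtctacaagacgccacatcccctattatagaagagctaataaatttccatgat
mt-Nd3: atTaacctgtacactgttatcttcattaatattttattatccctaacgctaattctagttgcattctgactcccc
Gm28438: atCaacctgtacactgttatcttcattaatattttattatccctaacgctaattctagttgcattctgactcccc
mt-Co1: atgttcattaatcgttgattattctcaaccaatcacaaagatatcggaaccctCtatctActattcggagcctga
Gm13340: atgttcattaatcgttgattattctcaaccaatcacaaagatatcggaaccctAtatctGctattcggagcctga

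**Figure D1:**
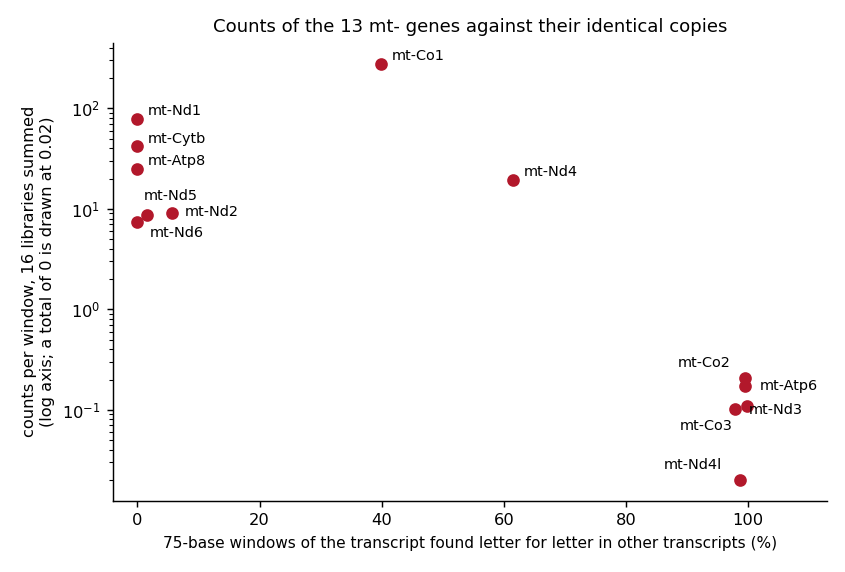
Counts per 75-base window of the 13 mitochondrially encoded genes, summed over 16 libraries (y, log axis), against the percentage of a gene's windows found unchanged in other annotated transcripts (x). Each point is a gene; the 5 genes at 97.8% or more lie at or below 0.208 counts per window, and the others between 7.32 and 280.

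The copies had few counts too. Gm28661 had 0 counts in all libraries together, Gm28437, the copy of mt-Co3, had 1, Gm10925, the copy of mt-Atp6, had 3, Gm28438 had 76 and Gm13340 had 221. The counting command in the file header names no option for reads that map to several places, and the part of such reads in the low counts was not tested. The levels of mt-Co2, mt-Co3, mt-Atp6, mt-Nd3 and mt-Nd4l are therefore uncertain, as are parts of mt-Co1 and mt-Nd4. In addition mt-Atp8 and mt-Atp6 overlap by 43 bases on the same strand, so a read in the overlap cannot be told apart between them.

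Per kilobase of the gene length deposited with the counts, mt-Co1 was the most abundant respiratory chain gene. Its mean was 1484 CPM per kb over the 16 libraries, followed by mt-Nd1 at 405.0. The next mitochondrial gene was mt-Cytb, the cytochrome b of complex III, at 219, below the most abundant nuclear genes. These were Cox4i1, the ubiquitous form of complex IV subunit 4, at 364 CPM per kb, and Uqcrh, the hinge protein of complex III, at 307. The highest nuclear genes of the other complexes were Ndufa4 at 147 CPM per kb, Sdhd, a membrane anchor of complex II, at 82.9, and Atp5c1, the gamma subunit of the ATP synthase rotor, at 145. Ndufa4 counts under complex I by its name, although its product is known as a subunit of complex IV. By this measure the lowest tested nuclear genes of complexes I, III and V were Ndufb2 at 1.34 CPM per kb, Uqcrc1, a core protein of complex III, at 11.2, and Atp5k, a subunit of the ATP synthase membrane part, at 3.83. These ranks depend on the length used. Ndufb2 had 1344 counts over a listed 5628 bases, while Ndufb3 had 1452 over 763 and stood at 10.6 CPM per kb.

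Several complex IV subunits exist as a widely expressed form and a form of restricted tissue. The lesions held mainly the widely expressed forms. Cox4i1 stood at 364 CPM per kb against 5.34 for Cox4i2, the form known for its induction by low oxygen. Cox6a1 stood at 10.4 against 1.61 for Cox6a2, the form of heart and skeletal muscle. Cox7a2 stood at 46.2 and Cox7a2l, a factor of supercomplex assembly, at 216, against 15.3 for the muscle form Cox7a1. Cox8a stood at 8.37 CPM per kb. Cox8b, the muscle form, and Cox8c, the testis form, had 0 counts in every library, and a count of 0 allows up to 3 counts per library. The testis forms Cox6b2 and Cox7b2 had 62 and 7 counts in total. Cox7a1 varied widely among libraries of the same group, from 0.25 to 13.8 CPM in the control libraries of day 5 and from 3.16 to 29.8 in the exercise libraries of day 5. The 9 skeletal muscle markers summed to 1.7 to 4.5 CPM per library.

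With exercise at day 5, most mitochondrial genes tested had a higher fitted level than in controls, none past the adjusted threshold in edgeR. At this time edgeR called no gene of the 15096 tested (0%), with 742 genes higher and 773 lower at an unadjusted p under 0.05, and it called none of the 90 respiratory chain genes. DESeq2 on the same counts called 80 genes and limma-voom 0. Of the 9 mitochondrial genes tested, 8 had a positive log2 fold change and 5 an unadjusted p under 0.05, against 41 and 4 of the 81 nuclear genes and 51.6% and 4.92% of all genes. The median log2 fold change was 0.35 for the mitochondrial genes, 0.00 for the nuclear genes and 0.01 for all genes. In the following values, libraries stand in the order of their labels, which is replicates 1, 2, 5 and 6 for control and 1, 2, 7 and 12 for exercise at day 5, and replicates 2, 3, 4 and 5 for control and 13, 17, 18 and 19 for exercise at day 10.

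mt-Nd5, a proton-pumping subunit of complex I at chrM:11742-13565 on the plus strand, was counted at 58.5, 71.5, 62.4 and 74.7 CPM in the control libraries of day 5 and at 89.4, 101, 114 and 134 in the exercise libraries. The groups did not overlap. The log2 fold change was 0.72 with a standard error of 0.15, and the adjusted p from edgeR was 0.233. mt-Atp8, a small subunit of the ATP synthase membrane part at chrM:7766-7969 on the plus strand, was at 12.7, 15.7, 12.9 and 13.1 CPM in control and at 21.999, 22.5, 25.4 and 33.9 in exercise. These groups did not overlap either, with a log2 fold change of 0.93, a standard error of 0.23 and an adjusted p from edgeR of 0.268. These were the 2 mitochondrial genes called by DESeq2, with adjusted p of 0.00584 and 0.0207. In the authors' deposited table, also made with DESeq2, they had adjusted p of 0.00075 and 0.000318.

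The other mitochondrial genes had smaller differences at day 5. The log2 fold change was 0.43 for mt-Nd2 and 0.30 for mt-Nd1, both of complex I, and 0.42 for mt-Cytb, with unadjusted p from edgeR of 0.0368, 0.0306 and 0.0142. mt-Nd6, the only member on the opposite strand, was at 0.35, mt-Nd4 at 0.18 and mt-Co1 at 0.12, and mt-Co2, at 3 to 13 counts a library, was at -0.57. The mitochondrial ribosomal RNA mt-Rnr2, which is no subunit, had a log2 fold change of 0.39 with an adjusted p from edgeR of 0.428. The 81 nuclear genes at day 5 had 4 higher and 8 lower at an unadjusted p under 0.05, against 4.92% and 5.12% of all genes. Cox5a, a complex IV subunit, was at 104, 131, 102 and 87.1 CPM in control and at 114, 231, 147 and 147 in exercise, where the groups overlapped, with a log2 fold change of 0.59 and an adjusted p from edgeR of 0.355. The other higher ones were Ndufa5 at 0.68, Sdhd at 0.30 and Ndufs1 at 0.25. The lower ones were Cox6c, Cox6a2, Uqcrq at -0.54 and, in complex I, Ndufs6 at -0.65, Ndufb7 at -0.39, Ndufb11 at -0.38, Ndufs3 at -0.30 and Ndufa8 at -0.28. The exercise libraries of day 5 also had lower totals and a higher mean sum of 14 neuron markers, 816 CPM against 520 in control. The neuron sums overlapped, at 612 to 1116 CPM against 458 to 639. Microglia markers summed to 6199 to 8393 CPM in exercise against 7404 to 9997 in control. Replicate 12 of exercise had the highest neuron sum of its group, 1116 CPM, and the highest mitochondrial sum, 4152 CPM. Without replicate 12 the mitochondrial median was 0.23. The part of the totals or of these markers in the mitochondrial values was not tested.

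At day 10 the median fold change of the mitochondrial genes with exercise lay nearer to 0. This median over the 9 genes was 0.03, with 5 positive values (52.1% of all genes) and 4 negative, and none was called. Single genes differed from the median. In the authors' deposited table mt-Nd4 was at 0.18 at day 5 and -0.21 at day 10, and mt-Co1 at 0.11 and -0.16. mt-Nd5 was at 69.0, 76.2, 70.9 and 81.1 CPM in control and at 129, 80.5, 83.8 and 83.6 in exercise, with 3 exercise libraries close to the highest control library and replicate 13 far above. The log2 fold change was 0.34 and the adjusted p from edgeR 0.352. mt-Atp8 was at 14.6, 15.7, 14.8 and 19.95 CPM in control and at 29.1, 12.3, 14.4 and 16.6 in exercise, where the groups overlapped. Replicate 13 of exercise at day 10 had the highest level of its group for each of mt-Nd1, mt-Nd2, mt-Nd4, mt-Nd5, mt-Nd6, mt-Cytb, mt-Co1 and mt-Atp8, and without it the mitochondrial median was -0.18. This library also had the highest neuron marker sum of its group, 667 CPM against 173 to 289, and the part of those markers was not tested. The difference between the exercise effects of the 2 days was not called for any gene tested (0%). At an unadjusted p under 0.05 it was higher for 1 and lower for 5 of the 90 members, against 4.77% and 4.35% of all genes. It was -0.78 for mt-Atp8, with an adjusted p from edgeR of 0.521, and -0.37 for mt-Nd5, with 0.598. Without replicate 13 the value for mt-Atp8 was -1.11, with an adjusted p from edgeR of 0.141.

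**Figure D2:**
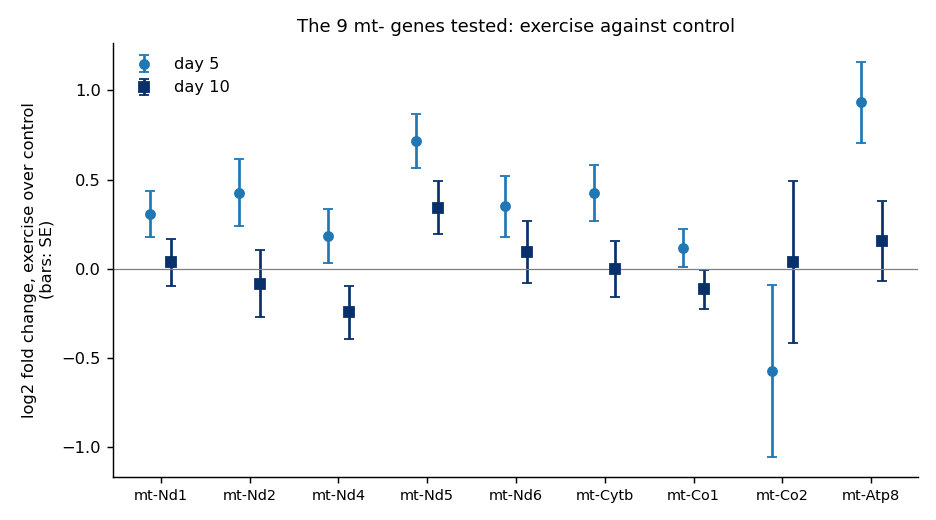
Log2 fold change of exercise over control (y) for the 9 mitochondrially encoded genes tested (x), at day 5 (circles) and day 10 (squares), with standard errors as bars. At day 5 the values of mt-Nd5 and mt-Atp8 are 0.72 and 0.93, at day 10 they are 0.34 and 0.16, and none passed the adjusted threshold in edgeR.

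Among the nuclear genes, Cox6c was lower with exercise at both days. Cox6c, a nuclear subunit of complex IV at chr15:35925886-35938246 on the minus strand, was at 126, 133, 168 and 172 CPM in the control libraries of day 10 and at 103, 107, 85.6 and 93.2 in the exercise libraries. The groups did not overlap. It fell by 0.62 on the log2 scale, with a standard error of 0.12 and an adjusted p from edgeR of 0.0424. It was the only respiratory chain gene of the 90 called there, where 0.192% of all genes were called and 0.0861% were called lower. At day 5 it was at 169, 167, 182 and 159 CPM in control and 124, 149, 116 and 115 in exercise, again without overlap, but the log2 fold change of -0.42 had an adjusted p from edgeR of 0.280. Averaged over both days, Cox6c fell by 0.52 with an adjusted p from edgeR of 0.0241, the only member among the 0.146% of genes called and the 0.0596% called lower. The authors' deposited table had Cox6c lower at both days, with log2 fold changes of -0.43 and -0.68 and adjusted p of 0.0144 and 0.00261. The call at day 10 was lost in a fit of the 8 libraries of that day alone (adjusted p from edgeR of 0.129), with the library total as a covariate (0.0526), and without any library of the day except replicate 18 of exercise, where it was 0.0658 to 0.126. It was also lost without replicate 1 or 2 of control or 7 or 12 of exercise at day 5, which enter the common spread (0.0509 to 0.0566). The call averaged over days was lost with the library total as a covariate (0.107) and without replicate 2 or 5 of control or 7 or 12 of exercise at day 5, or 5 of control or 13 or 19 of exercise at day 10 (0.0509 to 0.065). Of the Cox6c transcript, 6.67% of the 75-base stretches also occurred in transcripts of other genes, mainly the neighbouring Vps13b.

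At an unadjusted p under 0.05, 10 of the 81 nuclear genes were lower with exercise at day 10, Cox6c included, and 2 were higher, against 5.56% lower and 7.25% higher of all genes. The 2 higher were Ndufa7 at a log2 fold change of 0.83 and Cox6a2, and the lower ones held Ndufs4 at -0.44, Uqcrc1 at -0.46, Atp5j at -0.36, Atp5o at -0.32, Ndufs3 at -0.27 and Uqcrh at -0.27. Ndufs5, an accessory subunit of complex I, was at 9.18, 10.9, 11.2 and 15.2 CPM in control and at 8.00, 6.34, 7.88 and 6.08 in exercise, without overlap. Its log2 fold change was -0.71 with an adjusted p from edgeR of 0.116. Ndufb11, another accessory subunit of complex I, was at 117, 127, 153 and 170 CPM in control and at 105, 118, 99.6 and 79.5 in exercise, where the lowest control library and the highest exercise library overlapped. Its log2 fold change of -0.50 had an adjusted p of 0.215 in edgeR, and in the authors' deposited table it was -0.59 with 0.0392. Cox4i2 was at 23.2, 0.635, 4.56 and 6.79 CPM in the control libraries and at 2.79, 5.46, 2.83 and 1.82 in exercise, so its log2 fold change of -1.45 rested on the first control library. Cox6a2, at 4 to 40 counts a library, had a log2 fold change of -1.35 at day 5 and 1.20 at day 10, and the difference of 2.56 between the days had an adjusted p from edgeR of 0.423. The median of the nuclear genes was -0.10, with 64 of 81 negative against 47.9% of all genes. Cell type markers also differed with exercise at this day, though of the sums below only that of pericytes and smooth muscle did not overlap with control. All 8 microglia markers had a positive log2 fold change, with a median of 0.42 and sums of 6905 to 14053 CPM in exercise against 6297 to 8490 in control. Of 12 oligodendrocyte and myelin markers 11 had a negative one, with a median of -0.36 and sums of 12480 to 28885 against 25052 to 28306 CPM. Negative values were also found for 7 of 8 astrocyte markers (4980 to 7271 against 6681 to 8082 CPM), 8 of 8 of pericytes and smooth muscle (187 to 221 against 242 to 289 CPM), 7 of 8 of endothelium (203 to 270 against 245 to 281 CPM) and 4 of 7 of fibroblasts and meninges (1671 to 4981 against 4117 to 5482 CPM). Of all these markers edgeR called Slco1a4 of endothelium and Igf2 of fibroblasts and meninges, both lower. Replicate 17 of exercise had the microglia sum of 14053 CPM, where replicates 13, 18 and 19 were at 8484, 6905 and 9378. It also had the lowest oligodendrocyte and myelin sum of its group, 12480 CPM, and the highest macrophage sum, 8043 CPM. Macrophage markers summed to 2298 to 8043 CPM in exercise against 3309 to 4485 in control. The part of these markers in the values of Cox6c and the other nuclear genes was not tested.

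**Figure D3:**
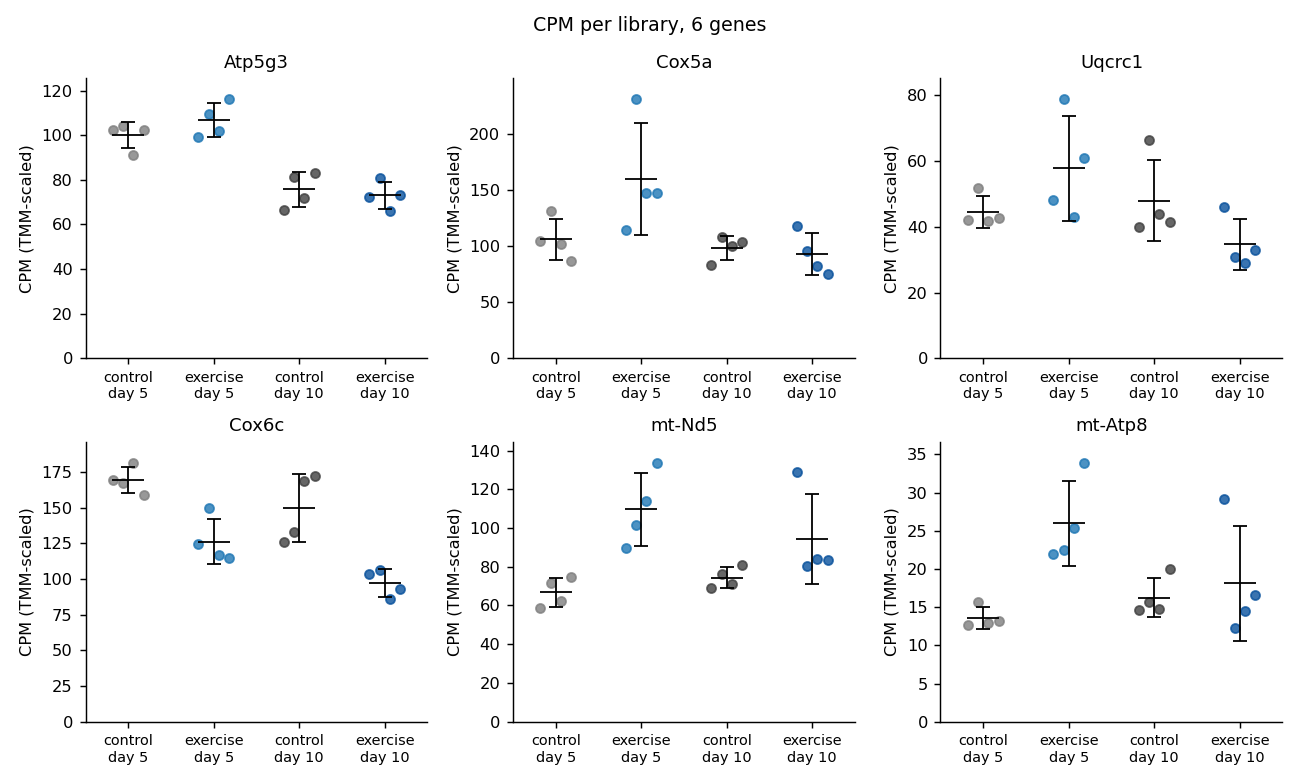
CPM after TMM scaling (y) in each library (points) of the 4 groups (x) for Atp5g3, Cox5a, Uqcrc1, Cox6c, mt-Nd5 and mt-Atp8, with the mean and SD of 4 libraries as bars. Atp5g3 is lower in all libraries of day 10 than in any of day 5, and Cox6c is lower in exercise than in control at each day.

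From day 5 to day 10, every respiratory chain gene called by edgeR was nuclear and lower at the later day. In control lesions 6 of the 90 members fell and 0 rose, where 12.3% of all genes were called, 5.67% higher and 6.64% lower. The 6.67% of members that fell is close to the 6.64% of all genes. In exercise lesions 13 of 90 fell, or 14.4%, and 0 rose, where 10.1% of all genes were called, 5.17% higher and 4.9% lower. All 13 were nuclear. A fit of the 8 exercise libraries alone called 4, of which 3 were among the 13 and Uqcr10 was not. The calls of Cox5a, Cox7a2, Atp5o, Atp5f1, Atp5c1, Uqcrc1, Uqcrb, Ndufs5, Ndufs4 and Ndufa12 were lost there. Leaving out 1 library called 6 to 8 without replicate 2, 7 or 12 of day 5 or 18 or 19 of day 10, and 20 without replicate 13 of day 10. In control, 2 members were called without replicate 2 of day 10, 3 without its replicate 5, and 3 with no filter on low counts. The median of the 81 nuclear genes was -0.18 in control, with 64 negative, and -0.32 in exercise, with 69 negative, against 48.8% and 49.4% of all genes, while the median of all genes was 0.01 in each. No difference between these 2 changes was called for any gene, since it is the same contrast as the difference between the exercise effects of the days.

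Of the 17 nuclear genes of complex V, Atp5g3, Atp5b and Atp5f1 were called lower in both groups, and Atp5o and Atp5c1 in exercise only. Over all genes tested, 6.64% were called lower in control and 4.9% in exercise. Atp5g3, which encodes the c subunit of the ATP synthase rotor ring at chr2:73908447-73911326 on the minus strand, was at 102, 104, 91.2 and 102 CPM in control at day 5 and at 66.4, 81.4, 71.8 and 83.2 at day 10. In exercise it was at 99.4, 109, 102 and 116 CPM at day 5 and at 72.1, 80.9, 66.2 and 73.3 at day 10. The days did not overlap in either group. It fell by 0.40 in control and by 0.55 in exercise, with adjusted p from edgeR of 0.0119 and 0.00213. Atp5b, the catalytic beta subunit, fell by 0.31 in control (251 to 261 CPM at day 5, 192 to 232 at day 10) and by 0.39 in exercise (243 to 276 against 188 to 211). Atp5f1, the b subunit of the peripheral stalk, fell by 0.35 and 0.37, also without overlap between days. In exercise the stalk subunit Atp5o and the rotor subunit Atp5c1 fell as well, by 0.47 and 0.37, and for Atp5c1 the highest library of day 10, 273 CPM, lay just above the lowest of day 5, 272. Of the Atp5o transcript 34.2% of the 75-base stretches also occurred in other transcripts, so its counts are uncertain, and for Atp5f1 the share was 10.1%. Summed over its 17 nuclear genes, complex V stood at 1486 ± 2.19 CPM in control at day 5 and 1288 ± 79.0 at day 10, and at 1493 ± 122 and 1183 ± 107 in exercise (SD, n = 4).

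In complex IV, Cox7a2 fell in both groups. It was at 43.8, 39.1, 39.2 and 44.3 CPM in control at day 5 and at 26.2, 30.6, 31.5 and 32.2 at day 10, and in exercise at 39.6, 38.2, 45.1 and 37.1 and then at 33.3, 24.9, 28.2 and 24.0. The days did not overlap, and the fall was 0.47 in control and 0.54 in exercise, with adjusted p from edgeR of 0.0171 and 0.0100. Cox5b, a zinc-binding subunit, fell in exercise by 0.53, from 60.3 to 79.3 CPM at day 5 to 43.9 to 48.7 at day 10. Cox5a, which sits beside it in the complex, was at 114, 231, 147 and 147 CPM in exercise at day 5 and at 118, 95.4, 82.5 and 74.9 at day 10, where replicate 2 of day 5 stood far above the rest. It fell by 0.78 with an adjusted p from edgeR of 0.0123, and in control the change was -0.11. Of the 75-base stretches of Cox5b and Cox5a, 7.42% and 5.91% also occurred in other transcripts. Cox6a2 fell by 1.76 in control, from 0.794 to 2.90 CPM at day 5 to 0.327 to 0.834 at day 10, and it was at 0.80, not called, in exercise.

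In complex III, Uqcrq, a small subunit near cytochrome b, fell by 0.64 in control, from 21.5, 27.6, 36.3 and 40.6 CPM at day 5 to 20.2, 16.2, 22.1 and 22.5 at day 10, where the days overlapped. Its change in exercise was -0.36 with an adjusted p from edgeR of 0.237. Uqcrc1 was at 48.2, 78.8, 43.0 and 61.1 CPM in exercise at day 5 and at 46.1, 30.8, 29.1 and 32.9 at day 10, where the days overlapped. It fell by 0.73 with an adjusted p from edgeR of 0.0249, while in control the change was 0.10. Uqcrb, a ubiquinone-site subunit, fell by 0.58 in exercise, and 16.7% of its stretches occurred in other transcripts.

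In complex I, 3 of 38 nuclear genes were called lower in exercise and 0 in control, where 4.9% and 6.64% of all genes were called lower. Ndufs5 was at 10.9, 11.1, 10.9 and 11.7 CPM at day 5 and at 8.00, 6.34, 7.88 and 6.08 at day 10, without overlap, and it fell by 0.65 with an adjusted p from edgeR of 0.0263. Ndufs4, an accessory subunit whose loss causes a mitochondrial encephalopathy in mice, fell by 0.52, and Ndufa12, another accessory subunit, fell by 0.55. Their control changes were -0.02 and -0.47. In complex II, which is wholly nuclear, none of Sdha, Sdhb, Sdhc and Sdhd was called in any comparison. In exercise the 4 had log2 fold changes of -0.40 to -0.15 from day 5 to day 10.

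**Figure D4:**
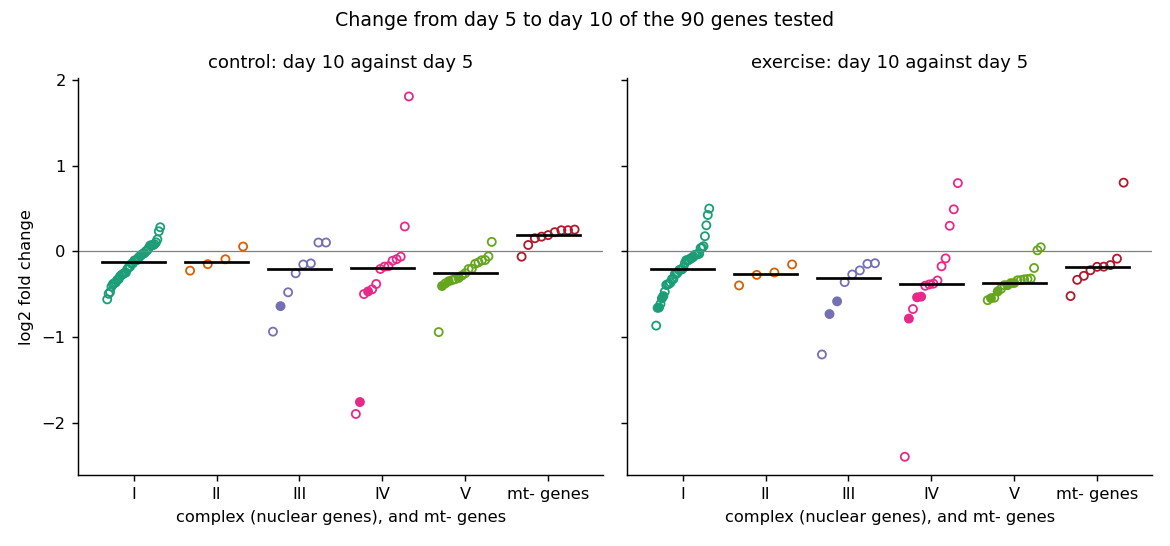
Log2 fold change from day 5 to day 10 (y) of the 90 genes tested, in control (left) and exercise lesions (right), for the nuclear genes of each complex and for the mitochondrial genes (x). Filled points passed the adjusted threshold in edgeR, 6 at left and 13 at right, all below 0, and black lines mark the median of each column.

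No mitochondrial gene was called between the days. In control lesions 8 of the 9 had a positive log2 fold change, against 51.2% of all genes, with a median of 0.19, and in exercise lesions 8 of 9 had a negative one, against 49.4%, with a median of -0.18. Without replicate 13 of exercise at day 10, the exercise median was -0.37 and 2 mitochondrial genes were called lower. The 85 nuclear genes summed to 5059 ± 187 CPM in control at day 5, 5074 ± 450 in exercise at day 5, 4648 ± 388 in control at day 10 and 4258 ± 303 in exercise at day 10 (SD, n = 4). The sum in exercise at day 10, 3948 to 4521 CPM, lay below all exercise libraries of day 5, 4575 to 5634, while the control days overlapped. The 13 mitochondrial genes summed to 3087 ± 192, 3528 ± 430, 3276 ± 305 and 3097 ± 382 CPM in the same order, and all groups overlapped.

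The ratio of the mitochondrial to the nuclear sum was 0.588, 0.604, 0.640 and 0.607 in control at day 5 and 0.696, 0.590, 0.705 and 0.800 in exercise at day 5. At day 10 it was 0.802, 0.680, 0.624 and 0.723 in control and 0.803, 0.690, 0.702 and 0.709 in exercise. The control libraries of day 5 had the lowest mean ratio, 0.61, and the narrowest spread, an SD of 0.022 against 0.0520 to 0.0860 in the other groups, with which it overlapped except in exercise at day 10. These ratios carry no p-value, since the genes were chosen as a set with results known. With mt-Co1, mt-Co2, mt-Atp6, mt-Atp8 and mt-Nd4l left out, the mean ratios were 0.166 in control and 0.213 in exercise at day 5, and 0.196 and 0.213 at day 10. That sum still held mt-Nd4, mt-Nd3 and mt-Co3, most of whose stretches occur in nuclear copies. Only mt-Nd1 and mt-Cytb of the 13 had no unchanged stretch in another annotated transcript and no overlap with another member. Over these alone, the mean ratios were 0.115 and 0.147 at day 5 and 0.131 and 0.145 at day 10.

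**Figure D5:**
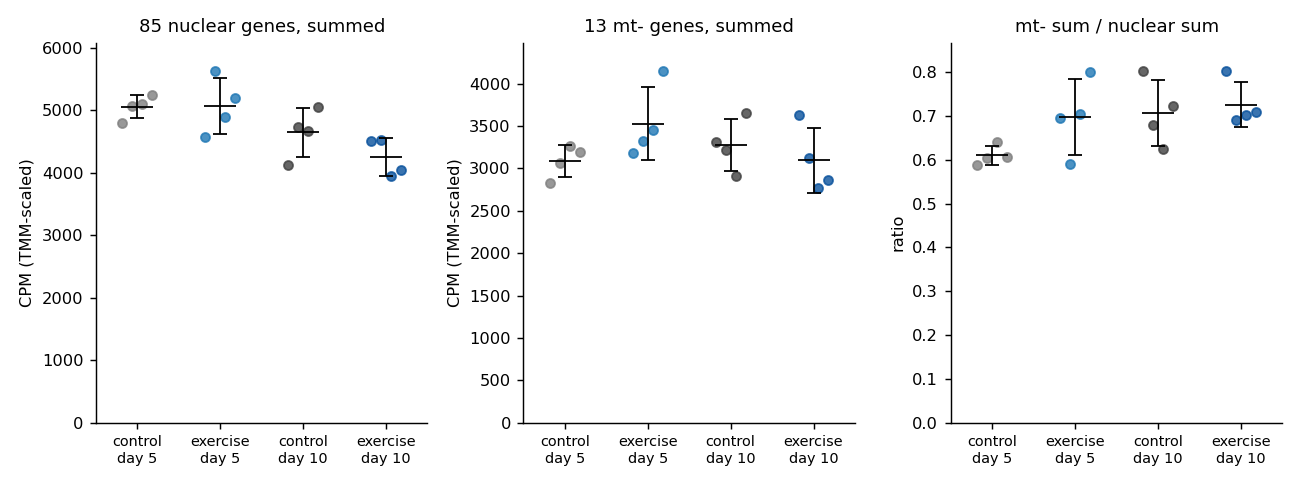
Summed CPM after TMM scaling of the 85 nuclear genes (left), of the 13 mitochondrially encoded genes (middle) and their ratio (right) in each library (points) of the 4 groups (x), with the mean and SD of 4 libraries as bars. The nuclear sum is lowest in exercise at day 10, mean 4258 CPM, and the ratio is lowest in control at day 5, mean 0.61.

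Cell type markers moved with the days as well. Of 10 macrophage markers 7 fell from day 5 to day 10 in each of control and exercise, with summed levels of 6498 to 9523 CPM in control and 6861 to 9703 in exercise at day 5 and 3309 to 4485 and 2298 to 8043 at day 10. Of 12 oligodendrocyte and myelin markers 7 rose in control and 4 in exercise, to sums of 25052 to 28306 and 12480 to 28885 CPM at day 10 from 11221 to 15357 and 12434 to 17479. Of 14 neuron markers 3 fell in control and 5 in exercise. Over all genes tested, edgeR called 5.67% higher and 6.64% lower in control, and 5.17% and 4.9% in exercise. The part of these markers in the day changes of the respiratory chain genes was not tested.

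Among 11 of the 16 nuclear genes called in any comparison that had a RefSeq promoter window (GRCm38.p6, 250 bases before to 50 after the start), 5 held the letters GCGCANGCG, a core of the NRF1 motif, against 15 of the 56 other members with a window. NRF1 (nuclear respiratory factor) is a known activator of respiratory chain genes. Over all 72 windows of 67 members the share with these letters was 29.2%, against 6.25% of the 32851 windows in the table, both strands searched. The letters CCGGAAG of the ETS family were in 22.2% of member windows and 8.86% of all, AAGATGGCG of YY1 in 9.72% and 1.40%, TCAAGGTCA of the ERR receptors in 2.78% and 0.423%, and GGGCGG of SP1 in 38.9% and 35.7%. Of the genes called, 0 of 11 held the ETS letters. A match is a description of the letters and not a bound site. Atp5c1 and Atp5o fell in exercise and hold NRF1 letters, but their windows are not shown. The windows of 4 other genes that fell are shown as examples, with NRF1, ERR and YY1 letters in capitals. Atp5g3 (chr2:73911277-73911576, minus strand) has ERR and then NRF1 letters, and Uqcrc1 (chr9:108936398-108936697, plus strand) has NRF1 letters at 2 places. Ndufs5 (chr4:123718137-123718436, minus strand) has NRF1 letters, and Ndufs4 (chr13:114388045-114388344, minus strand) has YY1 letters.
Atp5g3: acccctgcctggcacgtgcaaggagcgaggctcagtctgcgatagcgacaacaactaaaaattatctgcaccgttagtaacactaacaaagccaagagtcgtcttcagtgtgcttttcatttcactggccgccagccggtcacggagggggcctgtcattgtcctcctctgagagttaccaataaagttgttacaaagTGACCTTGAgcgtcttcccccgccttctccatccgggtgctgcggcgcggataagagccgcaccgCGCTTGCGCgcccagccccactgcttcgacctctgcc
Uqcrc1: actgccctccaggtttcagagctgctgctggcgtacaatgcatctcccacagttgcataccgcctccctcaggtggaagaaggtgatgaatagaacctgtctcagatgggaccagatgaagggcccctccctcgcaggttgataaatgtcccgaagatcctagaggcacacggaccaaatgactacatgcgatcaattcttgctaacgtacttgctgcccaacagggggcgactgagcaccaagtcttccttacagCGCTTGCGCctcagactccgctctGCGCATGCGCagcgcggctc
Ndufs5: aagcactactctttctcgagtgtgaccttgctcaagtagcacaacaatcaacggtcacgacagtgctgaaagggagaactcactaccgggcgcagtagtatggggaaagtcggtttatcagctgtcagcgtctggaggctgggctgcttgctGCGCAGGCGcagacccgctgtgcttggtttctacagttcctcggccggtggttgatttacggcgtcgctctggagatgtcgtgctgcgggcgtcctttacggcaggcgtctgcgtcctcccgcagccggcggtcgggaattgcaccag
Ndufs4: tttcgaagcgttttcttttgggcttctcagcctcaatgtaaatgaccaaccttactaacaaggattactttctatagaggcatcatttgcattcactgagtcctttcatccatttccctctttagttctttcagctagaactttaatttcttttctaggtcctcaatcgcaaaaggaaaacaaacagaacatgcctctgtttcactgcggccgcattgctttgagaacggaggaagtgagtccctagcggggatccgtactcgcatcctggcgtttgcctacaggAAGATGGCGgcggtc

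Beside the chain itself, no gene on the lists of assembly factors, electron and ATP carriers, citric acid cycle, glycolysis, mitochondrial DNA expression and transcription regulators was called with exercise at day 5 or at day 10. The counts between days are of genes called by edgeR. They stand against the 5.67% of all genes called higher and 6.64% called lower in control, and 5.17% and 4.9% in exercise. From day 5 to day 10, 8 of 20 glycolysis genes fell in control and 2 rose, with Ldha, lactate dehydrogenase, lower by a log2 fold change of -1.01 and Slc16a1, a lactate transporter, higher by 0.70. In exercise 3 glycolysis genes fell and 1 rose, Hk2, a hexokinase, by 0.79. None of 18 citric acid cycle genes was called in either. Of 19 carrier and coupling genes 3 were called lower in exercise and 0 in control. In exercise Cycs, cytochrome c itself, fell by 0.61, Vdac3, an outer membrane channel, by 0.51, and Slc25a4, an ATP and ADP exchanger, by 0.38. Their control changes were -0.40, -0.27 and 0.003, with adjusted p from edgeR of 0.0706, 0.0892 and 0.991. Cycs was at 22.7, 24.2, 18.5 and 29.1 CPM in exercise at day 5 and at 16.5, 16.1, 15.5 and 13.7 at day 10, without overlap. Of 43 tested assembly factors 1 was called lower in each group, Uqcc2 of complex III by 0.97 in control and Tmem126b of complex I by 0.80 in exercise. Uqcc2 was at -0.80 in exercise and Tmem126b at -0.33 in control, with adjusted p from edgeR of 0.0521 and 0.387. Of 20 mitochondrial DNA expression genes Twnk, the mitochondrial helicase, was called higher in exercise, by 0.64, and was at 0.23, not called, in control.

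Ppargc1a itself was at 3.26, 5.74, 4.09 and 4.14 CPM in control at day 5 and at 6.49, 9.62, 5.39 and 8.83 in exercise at day 5, where the groups overlapped in 1 library each. At day 10 it was at 7.66, 10.4, 8.65 and 13.2 CPM in control and at 6.70, 3.61, 8.59 and 6.69 in exercise. It rose by 1.21 from day 5 to day 10 in control, with an adjusted p from edgeR of 0.00782. The exercise difference was 0.81 at day 5 and -0.64 at day 10, with adjusted p from edgeR of 0.371 and 0.340, and the difference between those values, -1.45, had an adjusted p of 0.422. Over the same days the nuclear median of the respiratory chain genes in control was -0.18, and a link to Ppargc1a was not tested. In the same comparison the regulators Myc and Yy1 fell by 0.73 and 0.32.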

How the data were processed

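Gene counts for 16 lesion libraries were used as deposited by the authors. The submitters' processing notes name TopHat2 2.0.10, Bowtie 1.1.2 and FastQC 0.11.4 and the build GRCm38, and per the file headers featureCounts 1.5.0-p1 counted reads by strand. The authors' deposited comparison tables give log2 fold changes and p-values (adjusted ones too) from DESeq2 1.12.4, and were set beside the values computed here. Counts were fitted with edgeR 4.0.16 in R 4.3.3 (TMM, filterByExpr with a minimum count of 10, robust quasi-likelihood, a mean per group, 12 residual degrees of freedom), after a check of the fit on simulated counts. limma 3.58.1 and DESeq2 1.42.0 served as alternatives. All 16 libraries entered the main fit, and some of the alternative fits used fewer. Symbols came from GENCODE vM21. Genes named in the text are the mitochondrial members, members called in any comparison or lowest in p, isoform pairs, extremes of each complex, and called genes of the pathway lists. Members and lists were chosen with earlier results of these data known. Amplification of small RNA inputs can add spread between libraries, and totals of 8125981 to 13930582 counts leave genes under about 10 counts a library imprecise.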

Additional observations from a re-analysis of the deposited data

Results flagged for a closer look

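Of 240 groups of 4 libraries examined, over 60 quantities, 16 (6.67%) had an extreme library whose gap to its neighbour, as a share of the group's range, exceeded Dixon's critical value, and chance flags about 1 in 20 groups. In exercise at day 10, replicate 13 was such a library for mt-Nd5 at 129 CPM, mt-Cytb at 343, mt-Nd2 at 68.4, Uqcrb at 10.9 and the ratio of mitochondrial to nuclear sums at 0.803, and replicate 17 was for Ndufa8 at 62.7 CPM. In exercise at day 5, replicate 7 stood apart for Cox7a1 at 29.8 CPM, where the next library was at 6.44, and replicate 2 for Ndufa4l2, the low-oxygen relative of Ndufa4, at 8.48. In control at day 5, replicate 5 stood apart for Atp5g3 at 91.2 CPM, Ndufs3 at 34.4 and mt-Nd1 at 408.8, replicate 2 for Uqcrc1 at 51.7 and mt-Atp8 at 15.7, and replicate 6 for the complex V sum at 1490 CPM, where the other 3 libraries lay within 1 CPM of each other. In control at day 10, replicate 3 stood apart for Uqcrc1 at 66.4 CPM and replicate 2 for Sdhc at 115 CPM, the lowest of its group. No difference between the exercise effects of the days passed the adjusted threshold in edgeR for any member, with 1 member higher and 5 lower at an unadjusted p under 0.05.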

How the results depend on the processing

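Over 74 gene and comparison pairs, 1746 of 1882 alternative values kept their direction and side of the threshold. A further 122 lost the call, 14 gained it and 0 changed sign, counting only alternatives that gave a value. Only pairs called in the main fit could lose a call, so the pooled share understates how often called results did. Cox6c at day 10 lost it in 13 alternatives and kept it in 13. In the exercise day change, Uqcrb lost it in 17 and kept it in 8, while Atp5g3 kept it in all 25. Other scalings (DESeq2 size factors, upper quartile, scaling without mitochondrial or member rows) moved no member count by over 1.5 times. DESeq2 called 2 members at day 5, 2 at day 10 and 5 averaged over days, and 80, 227, 18 (difference between days) and 323 genes in all. The authors' tables called 3 members and 271 genes at day 5, and 2 and 179 at day 10. Fits of 8 libraries alone gave 0 members and 0 genes at day 10, and 4 and 863 in the exercise day change. With the library total as a covariate, day 10 had 0 members and 10 genes, and the average over days 0 and 0. With no filter on low counts, the control day change had 3 members and the average over days 2. Leaving out 1 library gave 0 to 1 members and 0 to 136 genes at day 10, 0 to 2 and 0 to 100 averaged over days, 2 to 8 members in the control and 6 to 20 in the exercise day change, with 992 to 1850 genes in the latter, and 0 to 1 genes at day 5 and 0 to 2 in the difference between days. At day 5 the log2 ratio of group means, exercise over control, was 0.193 for the mitochondrial sum and 0.194 for its ratio to the nuclear sum; without mt-Co1, mt-Co2, mt-Atp6, mt-Atp8 and mt-Nd4l these were 0.361 and 0.359, and over mt-Nd1 and mt-Cytb alone, chosen after seeing the data, 0.349 and 0.347. Equal replicate numbers did not pair libraries (correlations of -0.069 to 0.069), and with a replicate block the control day change had 638 genes and 1 member, Cox4i2, called higher, and none of the 6 members that fell without it, with 2 residual degrees of freedom. Where the cause of a change is not set by the number of samples or genes fitted, it was not tested. Depth limits members under about 10 counts a library.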
